A study of Drosophila melanogaster with 3 samples.

Results

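The sites described here are the 258 peaks that the authors' pooled CG8089 list placed on chromosome 4 of Drosophila melanogaster, out of 30000 entries in that list (0.860%). They were chosen by position alone: every pooled entry on chromosome 4 of build dm6 was taken. Of these, 43 were also in the authors' reproducible list, which holds the peaks kept after comparing replicates by the irreproducible discovery rate (IDR). The other 215 are called weaker entries below, because the reproducible list of 3233 peaks was exactly the 3233 strongest entries of the pooled list.

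The study mapped CG8089 by chromatin immunoprecipitation and sequencing (ChIP-seq) in whole embryos collected 0 to 24 hours after laying, with both sexes pooled. There was a single group: embryos of a stable transgenic line that makes CG8089 fused to green fluorescent protein (GFP) at its C-terminus, precipitated with an antibody against GFP. The labels number its 3 biological replicates 2, 3 and 4, and each had its own list of 30000 entries. The labels name no driver or copy number for the transgene, the embryos hold all cell types of these stages, and no untagged line or other condition was part of the series. Read depth was not given in the sources used here, and the scale of the authors' signal value is not stated, so strengths are compared as ranks within a list.

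Chromosome 4 is the smallest of the fly's main chromosomes, often called the dot chromosome. Most of its gene-bearing arm is packaged in heterochromatin, carries the heterochromatin protein HP1a and methylated histone H3 lysine 9, and is rich in transposon remnants, yet its genes are transcribed. The protein POF binds it along its length, and the methyltransferase Eggless supplies much of its histone methylation. In the genome sequence it was 35.2% GC and 27.8% soft-masked repeat, against 41.6 to 42.6% GC and 18.1 to 21.2% soft-masked repeat on the other main chromosomes.

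The sequences around the sites ranked 1, 2, 4, 5 and 7 by strength on chromosome 4 are shown first, because high peaks were centred on them. Those ranked 3 (nearest start Cals) and 6 (CaMKII) are not shown. Each is the plus strand of dm6 from 100 bp before to 100 bp after the pooled summit, in lower case, with the 6-base word ACACTG in capitals on whichever strand it lies (CAGTGT when on the minus strand). The sequence is that of the RefSeq Release 6 genome. The zfh2 window is chr4:497779-497979, the lncRNA:CR43437 window chr4:424708-424908, the RpS3A window chr4:67186-67386, the Gyf window chr4:867018-867218 and the anne window chr4:132024-132224.
zfh2: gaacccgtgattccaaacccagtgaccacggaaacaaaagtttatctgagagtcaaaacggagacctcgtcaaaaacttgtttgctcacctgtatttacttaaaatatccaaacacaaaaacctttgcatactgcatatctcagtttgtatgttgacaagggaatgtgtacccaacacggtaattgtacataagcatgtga
lncRNA:CR43437: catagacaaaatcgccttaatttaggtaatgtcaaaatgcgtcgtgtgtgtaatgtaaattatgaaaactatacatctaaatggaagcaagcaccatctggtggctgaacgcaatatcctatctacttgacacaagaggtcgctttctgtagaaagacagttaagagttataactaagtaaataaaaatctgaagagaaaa
RpS3A: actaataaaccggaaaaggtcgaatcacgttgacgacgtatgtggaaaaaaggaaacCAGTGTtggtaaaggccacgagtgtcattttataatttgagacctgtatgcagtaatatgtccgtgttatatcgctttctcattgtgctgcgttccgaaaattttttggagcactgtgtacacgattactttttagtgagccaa
Gyf: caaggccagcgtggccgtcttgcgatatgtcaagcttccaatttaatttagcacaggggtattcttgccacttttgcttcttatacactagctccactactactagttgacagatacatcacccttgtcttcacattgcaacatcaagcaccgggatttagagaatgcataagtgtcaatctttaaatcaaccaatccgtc
anne: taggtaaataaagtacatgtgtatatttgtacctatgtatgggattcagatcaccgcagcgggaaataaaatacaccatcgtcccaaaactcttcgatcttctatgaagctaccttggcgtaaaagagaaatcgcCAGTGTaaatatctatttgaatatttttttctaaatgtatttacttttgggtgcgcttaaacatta

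The word was present in the RpS3A and anne windows and in none of the zfh2, lncRNA:CR43437 and Gyf windows. Of the windows not shown, that at CaMKII held the word and that at Cals did not. The GC content of the 5 windows was 39.3% (zfh2), 34.3% (lncRNA:CR43437), 39.8% (RpS3A), 42.8% (Gyf) and 34.3% (anne).

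In relation to its size chromosome 4 carried more reproducible CG8089 peaks than the other main chromosomes together. It had 31.9 reproducible peaks per Mb over its 1.35 Mb, against 24.1 per Mb elsewhere, a ratio of 1.33; the chromosome next in density, arm 2L, had 26.4 per Mb. The opposite held for all pooled entries, with 191 per Mb on chromosome 4 and 224 per Mb elsewhere. Of the chromosome 4 entries 16.7% were reproducible, against 10.7% of the 29742 entries elsewhere and a background of 10.8% over the whole list. Protein-coding genes were sparser on chromosome 4, at 59.3 per Mb against 105 per Mb elsewhere, so per 100 protein-coding genes it had 53.8 reproducible peaks, against 23.0 elsewhere. Chromosome 4 held 1.33% of the reproducible list, against a 1.01% share of sequence length. Of the peaks that both of 2 replicates recovered among their strongest entries it held 1.17% without replicate 2, 1.23% without replicate 3 and 1.00% without replicate 4, so without replicate 4 the excess over its share of length was gone. These are counts over regions and carry no test; how each replicate behaved is given further on.

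The reproducible chromosome 4 peaks were of ordinary strength. Their median pooled signal was 172 (116 to 622), against a median of 175 for the 3190 reproducible peaks elsewhere, where the highest signal was 4668. The strongest of them stood at rank 110 of the pooled list. Of the 43, 37 were listed at 396 bp wide, as were 2567 of the 3190 reproducible peaks elsewhere, and the narrowest was 140 bp. All 215 weaker chromosome 4 entries were also listed at 396 bp. Of the 43 peaks, 42 had the highest −log10 q-value in the authors' lists, so only the signal ranked those.

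Both of the strongest chromosome 4 sites lay between genes, away from any annotated start. The peak at chr4:497776-498031 had a pooled signal of 622 and lay 3931 bp upstream of zfh2, which encodes a zinc-finger homeodomain transcription factor, and 8885 bp upstream of the outermost start of Asator on the other side. It ranked 536 in replicate 2, 44 in replicate 3 and 149 in replicate 4, with signals of 109, 334 and 167 in those lists. Replicate 3 placed it far higher than replicate 2 did, although it was within the strongest 3233 entries of all 3. The peak at chr4:424693-424938, 1259 bp upstream of the long noncoding RNA gene lncRNA:CR43437, had a pooled signal of 589 and pooled rank 124. It ranked 164, 170 and 103 in replicates 2, 3 and 4, with signals of 186, 198 and 198, so all replicates placed it at nearly the same level.

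The third strongest peak, chr4:1113262-1113456, had its summit on the last annotated base of sv, a gene for a Pax-family transcription factor. The same base lies in a 3' UTR within the body of Cals, which runs the other way and encodes a calsyntenin, a cadherin-family membrane protein of neurons. Its pooled signal was 390, and it ranked 612, 364 and 216 in replicates 2, 3 and 4, with signals of 102, 145 and 143. The nearest start site, that of Cals, was 9648 bp away. A 3' UTR position was uncommon: 2 of the 43 chromosome 4 peaks (4.65%) had one, against 0.752% of the reproducible peaks elsewhere. The other was at chr4:687904-688299 near the end of CG11360, and it was not in the replicate 2 list.

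The next 4 sites were promoters with the summit 73 to 96 bp upstream of a start site. RpS3A, which encodes a protein of the small ribosomal subunit, had the strongest promoter peak (chr4:67088-67483, signal 383, 79 bp upstream), with ranks of 230, 514 and 394 in replicates 2, 3 and 4 and signals of 163, 124 and 111. Gyf, named for the GYF domain of a protein family that acts in translational repression, had a peak 93 bp upstream (chr4:867038-867193, signal 346) at ranks 280, 908 and 591, with signals of 149.6, 93.5 and 92.1. CaMKII, the calcium/calmodulin-dependent kinase of synaptic plasticity, had a peak 73 bp upstream of an internal start site (chr4:1051253-1051648, signal 303) at ranks 347, 703 and 1041, with signals of 134, 106 and 71.4. These 3 promoters and that of anne were ranked highest by replicate 2. The anne peak lay 96 bp upstream (chr4:132057-132196, signal 294), at ranks 320, 1391 and 839 and signals of 139, 75.5 and 78.5.

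Developmental regulators and a silencing factor followed. Sox102F, which encodes a Sox-family transcription factor, had a pair of overlapping peaks, 206 and 407 bp upstream of an internal start. The stronger (chr4:807355-807750, signal 293) ranked 550, 462 and 847 in replicates 2, 3 and 4, with signals of 107, 129 and 78.0. The weaker (chr4:807556-807951, signal 172) took the same entry in replicates 2 and 3 and ranked 5919 in replicate 4, so the pair is not independent; with overlapping entries merged, 42 reproducible sites were left. The peak in the 5' UTR of myo, which encodes the TGF-beta ligand myoglianin, was the steadiest of the 35 peaks present in every list (chr4:695125-695520, signal 284), at ranks 685, 818 and 813 with signals of 95.8, 98.5 and 79.6. The peak 123 bp upstream of an internal start of gw, which encodes the GW182 protein of microRNA silencing, had a pooled signal of 267 (chr4:659908-660303) and ranks of 772, 473 and 1118, with signals of 90.2, 128 and 68.0.

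**Figure D1:**
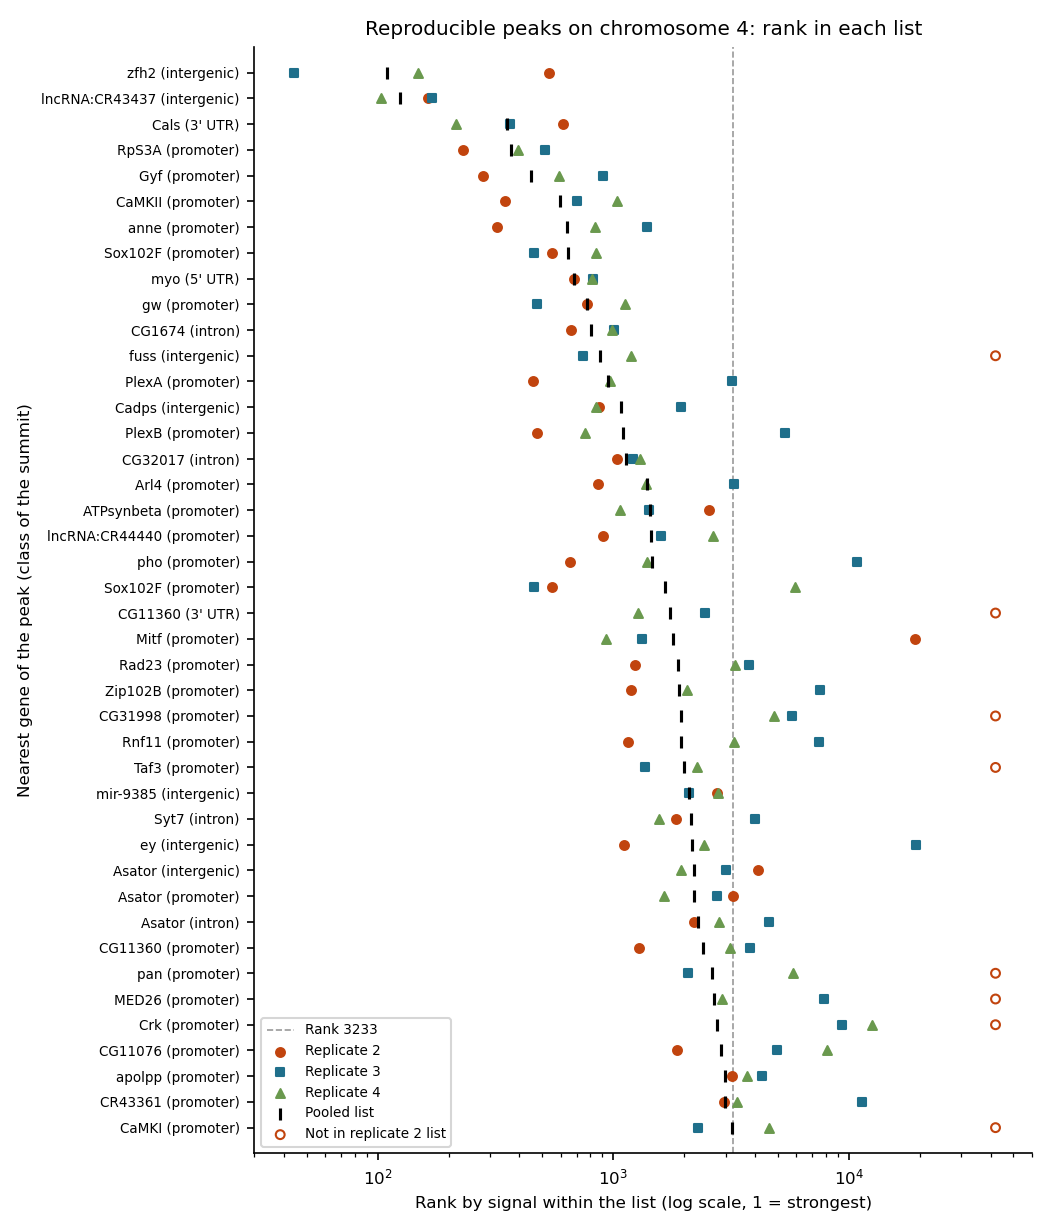
Rank of 42 of the 43 reproducible chromosome 4 peaks (rows, strongest pooled signal at the top, labelled by the gene of the nearest start site and the class of the summit) in the pooled list and in each replicate list, on a log axis where 1 is the strongest entry; open circles mark the 8 peaks with no summit in the replicate 2 list. The 10 strongest peaks lie left of rank 3233 in all 3 replicates, while some peaks in lower rows lie right of it in 1 or more.

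Promoters held most of the reproducible chromosome 4 peaks, and introns few. With promoter peaks defined as those whose summit was at most 500 bp from an annotated start, 29 of 43 (67.4%) were promoter peaks, against 52.4% of the reproducible peaks elsewhere, although a smaller share of chromosome 4 lay within such windows (10.7% of its bases, against 13.6% elsewhere). Only 4 (9.30%) were in introns outside promoters, against 32.0% elsewhere: those in CG1674, CG32017, Syt7 and Asator. The remaining peaks were 7 intergenic (16.3%, against 12.9% elsewhere), 2 in a 3' UTR and 1 in a 5' UTR, and none lay in coding sequence, where 0.470% of the reproducible peaks elsewhere did.

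Intronic summits on chromosome 4 were also the smaller share in each replicate. Among each replicate's own 3233 strongest entries, 5 chromosome 4 summits were intronic in each of the 3 lists, 13.4 ± 0.205% of the chromosome 4 entries against 31.5 ± 1.88% elsewhere (SD, n = 3), a difference of −18.1 ± 1.95 percentage points that was negative in 3 of 3 replicates. The promoter share was 67.6, 62.2 and 55.3% on chromosome 4 in replicates 2, 3 and 4, against 51.8, 52.5 and 51.2% elsewhere, a difference of 9.87 ± 5.86 points, positive in 3 of 3. By an exact two-sided sign-flip permutation test over the replicates each gave p = 0.25, the smallest that 3 replicates allow, and 0.3 after Benjamini-Hochberg adjustment over 6 such comparisons. The promoter excess was smaller in the chromosome 4 peaks that both of any 2 replicates recovered among their strongest entries: 54.2 to 57.9% of those 19 to 26 peaks were promoter peaks, against 51.4 to 54.8% elsewhere.

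**Figure D2:**
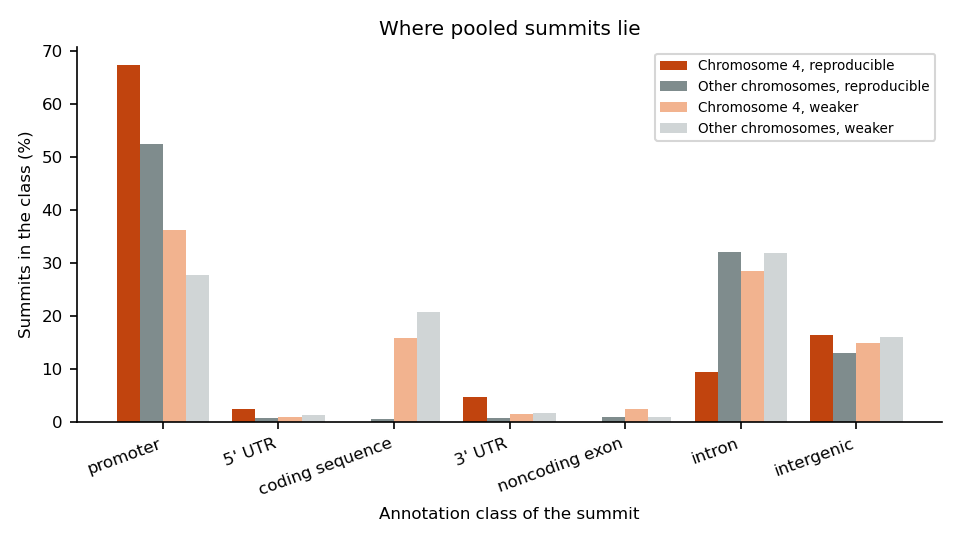
Percent of pooled summits in each annotation class for the 43 reproducible and 215 weaker chromosome 4 entries and for the 3190 reproducible and 26552 weaker entries of the other main chromosomes. Chromosome 4 has the taller promoter bar and the shorter intron bar among reproducible peaks, while coding sequence holds 15.8% of its weaker entries and 20.7% of the weaker entries elsewhere.

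The promoter summits sat in a narrow zone just upstream of the start site. Their median position was 73 bp upstream, with quartiles of 96 and 24 bp upstream, against a median of 68 bp and quartiles of 159 and 3 bp upstream for the 1672 promoter peaks elsewhere. Of the 29, 24 were upstream (82.8%, against 75.7% elsewhere) and 17 were within 100 bp upstream (58.6%, against 35.4% elsewhere). The span ran from 409 bp upstream of pho, which encodes a DNA-binding protein of the Polycomb group, to 189 bp downstream of the start of Taf3, which encodes a subunit of the general factor TFIID.

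**Figure D3:**
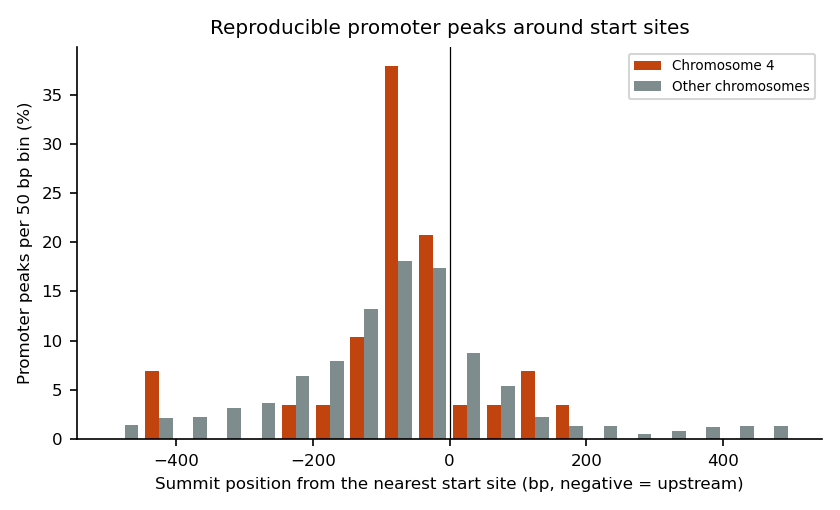
Distribution of reproducible promoter summits around the nearest start site in 50 bp bins (negative is upstream), as a percent of the 29 chromosome 4 and the 1672 other promoter peaks. The bin 50 to 100 bp upstream holds 11 chromosome 4 summits, 37.9% against 18.1% elsewhere.

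In the replicates' own strongest entries this upstream position varied. The share of promoter summits within 100 bp upstream was 64% (16 of 25) in replicate 2, 34.8% (8 of 23) in replicate 3 and 42.9% (9 of 21) in replicate 4 on chromosome 4. Elsewhere it was 35.9, 28.0 and 34.7% in the same replicates. Chromosome 4 was higher in 3 of 3, by 14.4 ± 11.9 points (exact sign-flip permutation p = 0.25, adjusted 0.3), with the largest difference in replicate 2.

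A larger share of the genes on chromosome 4 than of genes elsewhere had a reproducible peak at a start site. It was 28 of the 80 protein-coding genes (35%), against 14.5% elsewhere and a background of 14.6% over all protein-coding genes. Over all 118 annotated genes it was 30 (25.4%), against 12.3% elsewhere and a background of 12.4%; the other 2 were the long noncoding RNA gene lncRNA:CR44440 and the pseudogene CR43361. In each replicate's strongest entries 24, 21 and 22 chromosome 4 protein-coding genes were marked, 27.9 ± 1.91% against 14.1 ± 0.611% elsewhere (SD, n = 3). The difference of 13.8 ± 1.31 points was positive in 3 of 3 replicates (exact sign-flip permutation p = 0.25, adjusted 0.3). Every annotated start of a gene counted, and chromosome 4 had 183 starts for its 118 genes, against 23398 for 18046 genes elsewhere. The shares were not adjusted for the number of starts per gene.

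Weaker entries marked many of the remaining genes. A further 32 protein-coding genes (40%) had only a weaker entry at a start site, against 37.1% elsewhere. With the reproducible class, 60 of 80 (75%) had an entry of some strength, against 51.5% elsewhere and a background of 51.7%. Over all annotated genes 80 of 118 (67.8%) had one, against 46.5% elsewhere and a background of 46.7%. The weaker class alone was 42.4% of all annotated genes on chromosome 4, against 34.2% elsewhere. Of the 30 noncoding RNA genes, 18 had a weaker entry only and 1 a reproducible peak. The 30, and so the 118 annotated genes, include separate records of 21 and 22 bp inside mir-9385 and mir-954, which had no entry at a start. No share elsewhere was taken for noncoding RNA genes, and some share an entry with a coding gene, as asRNA:CR43957 does with ci. At 4 of the 29 promoter peaks the window took in a pair of genes read in opposite directions: the pair ATPsynbeta and CG11076 at 2 peaks, apolpp and Zyx at 1, and CR43361 and unc-13 at 1.

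Grouped by role, marked genes were found in 7 of 8 lists, from transcription factors to ion transport. The lists cover 47 genes, of which 16 had a reproducible promoter peak, 20 a weaker entry only and 11 neither, close to the shares of all 80 protein-coding genes of chromosome 4 (35% reproducible, 40% weaker only, 25% neither). The background over all chromosomes was 14.6% for a reproducible peak, and the lists were not tested. Of 13 transcription factor genes, 3 had a reproducible promoter peak. These were pan, the TCF factor of Wnt signalling (signal 131), Sox102F, and Mitf, a factor known for lysosomal genes (signal 165). The start was an internal one in all 3. The genes ci (the effector of Hedgehog signalling), dati, zfh2 and ey (the Pax6 factor of eye development) had weaker entries only at their starts, and NfI, onecut, fd102C, fuss, toy and sv had none. Reproducible peaks next to zfh2, ey and fuss were therefore distal ones: 3931 bp upstream of zfh2, 785 bp upstream of ey in the interval between the oppositely read myo and ey (signal 147) and 4422 bp upstream of fuss, a Ski-family gene (signal 249).

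All 6 genes of the transcription and chromatin cofactor list had an entry of some strength, as did 75% of the protein-coding genes of chromosome 4. Taf3 (signal 154), Asator (signal 146) and MED26, a Mediator subunit gene (signal 130), had reproducible promoter peaks, those of Asator and MED26 at internal starts. Hcf, lgs (a Wnt cofactor) and Pur-alpha had weaker ones. Asator, a kinase of the tau-tubulin kinase family known from the mitotic spindle, is not a classical cofactor. It had 3 reproducible peaks, at an internal start, in an intron and 555 bp upstream of its outermost start. Together with the distal zfh2 peak these put 4 reproducible summits between positions 482863 and 497879.

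Housekeeping and neuronal genes were both represented. RpS3A and gw had reproducible peaks and eIF4G1, a translation initiation factor gene, a weaker one. ATPsynbeta, which encodes the catalytic beta subunit of mitochondrial ATP synthase, had a reproducible peak (signal 187) and ND-49, a gene of respiratory complex I, a weaker one. Of the 8 synapse genes, CaMKII and unc-13, a vesicle-priming factor (signal 121), had reproducible peaks at a start; Syt7, Ekar, mGluR, Cals and Cadps had weaker ones and Gat none. Syt7, a synaptotagmin gene, and Cadps, which encodes a factor of dense-core vesicle release, also had a reproducible peak elsewhere: in an intron of Syt7 (signal 148) and 498 bp beyond the end of Cadps (signal 222), past the last annotated gene of the chromosome.

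Among 9 signalling and guidance genes, PlexB and PlexA, which encode the semaphorin receptors, had reproducible promoter peaks (signals 219 and 236), at 73 and 75 bp upstream. Crk, an adaptor gene, had one too (signal 128). Ephrin and its receptor gene Eph, myo and PIP4K had weaker entries at their starts, and RhoGAP102A and Actbeta none. In the transport list Zip102B, a zinc transporter gene (signal 159), and apolpp, the lipophorin precursor gene (signal 121), had reproducible peaks and PMCA, the plasma membrane calcium pump gene, a weaker one. None of the 3 cytoskeleton genes had a reproducible promoter peak; Ank (ankyrin) had a weaker entry, and bt and Kif3C none.

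Genes outside the lists carried further reproducible promoter peaks. Arl4, which encodes an Arf-like small GTPase, had a summit 82 bp upstream (signal 191) at ranks 864, 3251 and 1384 in replicates 2, 3 and 4. Rad23, a gene of DNA repair and proteasome delivery, and Rnf11, a RING-finger gene, lie close together with Zip102B; their summits were 46 and 57 bp upstream, with signals of 159.7 and 157. At the promoters of Arl4, Rad23, Rnf11, Zip102B, PlexA, PlexB and pho alike, replicate 2 gave the highest rank, replicate 4 the next and replicate 3 the lowest. The intronic peaks of CG1674 (signal 261) and CG32017 (signal 214) were more even, at ranks 663, 1013 and 986 for CG1674 and 1039, 1217 and 1303 for CG32017 in replicates 2, 3 and 4. These genes were picked out for their rank order after the values were seen.

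The replicates differed in how they treated chromosome 4. Their own strongest 3233 entries held nearly the same number of chromosome 4 sites, 37, 37 and 38 in replicates 2, 3 and 4 (37.3 ± 0.577, SD, n = 3). The near-equal counts held near that cut and not at stricter ones. The 908 strongest entries held 18, 10 and 11 chromosome 4 sites in replicates 2, 3 and 4, and the 1627 strongest held 25, 17 and 23. Below rank 3233 the replicates also parted, with replicate 2 now the lowest: the remaining entries held 78 chromosome 4 sites in replicate 2, 334 in replicate 3 and 291 in replicate 4. Chromosome 4 therefore made up 1.14% of the strongest and 0.291% of the remaining entries of replicate 2. It made up 1.14% and 1.25% in replicate 3, and 1.18% and 1.09% in replicate 4, close to its 1.01% share of sequence length.

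**Figure D4:**
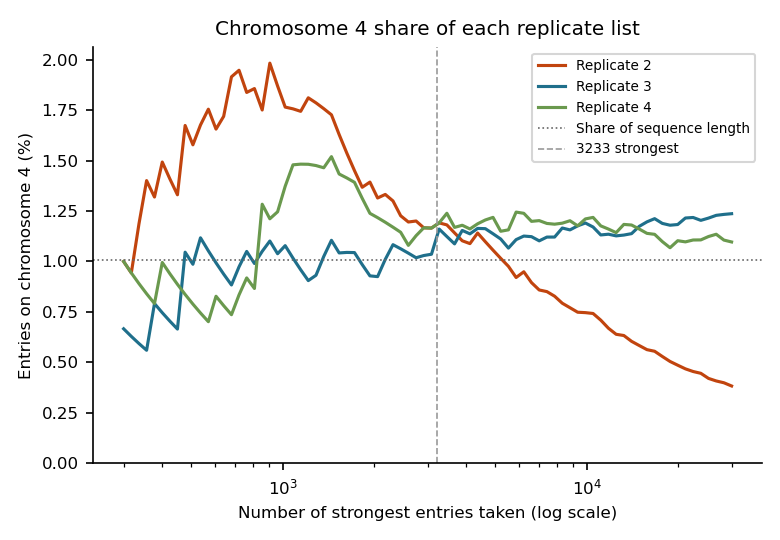
Percent of entries that lie on chromosome 4 among the strongest entries of each replicate list, from the 300 strongest to all 30000 (log axis); the dotted line is the 1.01% share of sequence length and the dashed line marks 3233 entries. Among the 908 strongest entries replicate 2 is the highest, at 1.98% against 1.10 and 1.21% in replicates 3 and 4. The curves meet near 3233 entries, after which replicate 2 falls to 0.383% while replicates 3 and 4 end at 1.24 and 1.10%.

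The share of chromosome 4 entries that were strong rested on replicate 2. In replicate 2, 32.2% of chromosome 4 entries were among the strongest 3233, against 10.7% of entries elsewhere; in replicate 3 it was 9.97% against 10.8%, and in replicate 4 11.6% against 10.8%. The mean difference was 7.15 ± 12.4 points (SD, n = 3), positive in 2 of 3 replicates, with an exact two-sided sign-flip permutation p of 0.75, also after adjustment. Without replicate 2 it was −0.0158 points. The 16.7% reproducible share in the pooled list, given above, came from reads of all 3 replicates.

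Replicate 2 also lacked chromosome 4 sites that the pooled list held. It had a summit in 61 of the 215 weaker chromosome 4 entries (28.4%), against 51.9% of weaker entries elsewhere, while replicate 3 had 151 (70.2%, against 57.1%) and replicate 4 had 132 (61.4%, against 60.1%). Of the 43 reproducible peaks, 35 had a summit in the replicate 2 list (81.4%, against 94.8% elsewhere), and all 43 had one in replicates 3 and 4. The 8 missing from replicate 2 were those at fuss, the 3' end of CG11360, CG31998, Taf3, pan, MED26, Crk and CaMKI. Of these, Crk and CG31998 were not among the strongest entries of any replicate.

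Base composition differed along with this. The median GC within 100 bp of the summit was 38.8% in weaker chromosome 4 entries and 47.3% in weaker entries elsewhere. The remaining entries outside chromosome 4 had a median GC of 48.3% in replicate 2, 43.8% in replicate 3 and 47.8% in replicate 4, and 23.3, 13.2 and 22.9% of them lay in coding sequence. Within each of 4 bands of GC content, a split made after seeing these values, replicate 2 held a smaller share of the weaker chromosome 4 entries than of the weaker entries elsewhere. The shares were 25% against 55.4% below 35% GC, 24.1% against 49.6% from 35 to 40%, 29.3% against 45.1% from 40 to 45%, and 36.5% against 53.7% above. The bands are wide, the top one above all, and the cause of the low share was not tested.

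**Figure D5:**
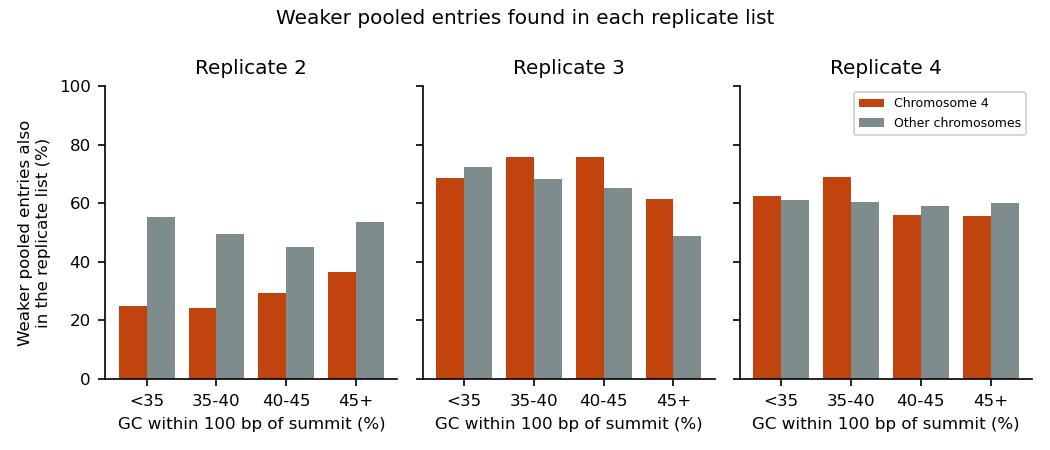
Percent of weaker pooled entries with a summit in each replicate list, for chromosome 4 and the other main chromosomes, by the GC content within 100 bp of the pooled summit. In replicate 2 the chromosome 4 bars, 24.1 to 36.5%, are below the bars of the other chromosomes, 45.1 to 55.4%, in every band; in replicates 3 and 4 they lie on both sides of them.

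Recovery of the reproducible peaks by single replicates was a little lower on chromosome 4. A peak was called recovered where the summit of one of a replicate's 3233 strongest entries lay inside it. Replicates 2, 3 and 4 recovered 32, 27 and 33 of the 43 (74.4, 62.8 and 76.7%), against 78.0, 76.1 and 80.5% of the peaks elsewhere; the backgrounds over the whole reproducible list were 78, 75.9 and 80.5%. The mean was 71.3 ± 7.48% on chromosome 4 and 78.2 ± 2.20% elsewhere (SD, n = 3), a difference of −6.90 ± 5.57 points, negative in 3 of 3 (exact sign-flip permutation p = 0.25, adjusted 0.3). All 3 replicates recovered 18 of the 43 peaks (41.9%, against 52.1% elsewhere), 2 replicates 15, 1 replicate 8, and none 2. Because the replicates are part of the pooled reads, these values describe evenness and are not an independent check.

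Some chromosome 4 sites differed widely between replicates. Among the 35 peaks present in every list, that at an internal start of Mitf had the largest spread in rank. It ranked 19205, 1322 and 932 in replicates 2, 3 and 4, and so was low in replicate 2. The peak upstream of ey ranked 1109, 19352 and 2428, and that of pho 656, 10841 and 1389, so both were low in replicate 3. The weaker Sox102F peak was low in replicate 4, as given above, and the fifth largest spread was that of the zfh2 peak, for which every rank was nonetheless within the strongest 3233. As a description, Spearman's rank correlation of the signal over shared chromosome 4 peaks was 0.50 between replicates 2 and 3 (35 peaks), 0.69 between 2 and 4 (35) and 0.60 between 3 and 4 (43), against 0.48, 0.67 and 0.64 elsewhere; the peaks share libraries and were selected on the pooled signal.

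Entries on either side of the limit between reproducible and weaker were close in signal. The last chromosome 4 peak inside it was the promoter peak of CaMKI, a calcium/calmodulin-dependent kinase gene, at pooled rank 3210 and signal 115.8, with ranks of 2291 and 4581 in replicates 3 and 4. It had no summit in the replicate 2 list. Among the entries just outside were those at the promoters of lncRNA:CR43956 (pooled rank 3637, signal 107), CG31999 (3671) and Cadps (3697), and 2019 bp upstream of the start of ci, in an intron of a gene read in the other direction, asRNA:CR43957 (3838). The Cadps entry ranked 2132 and 2720 in replicates 2 and 4 and 19219 in replicate 3.

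Along the chromosome the reproducible sites were spread unevenly. Their first summit was at position 43851 and the last at 1272257, with a median spacing of 18720 bp, against 1722 bp for all pooled chromosome 4 entries. The 100 kb stretch from position 400001 to 500000 held 8 of them, the most of any. The next stretch held 0 reproducible peaks but 24 pooled entries. Replicate 2 listed 2 entries there, replicate 3 listed 31 and replicate 4 listed 27. The longest interval without a reproducible summit was 162227 bp, running from the distal zfh2 peak to the gw peak and spanning zfh2, Pur-alpha, Ephrin and Eph. No pooled entry lay beyond position 1300000.

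The reproducible chromosome 4 sites were close to the whole chromosome in GC content, and their median window held less repeat than that of the reproducible peaks elsewhere. Their median GC was 35.8% (30.3 to 47.3%), against 35.2% for chromosome 4 as a whole and 37.8% for the reproducible peaks elsewhere. A median of 10.9% of the window was soft-masked, against 16.4% elsewhere. The 27.8% of the whole chromosome is a fraction of all bases, not a median of windows, so the 2 are not directly comparable. Of the 43 peaks, 1 was over 50% masked, that nearest mir-9385 (2.33%, against 1.41% elsewhere). Among weaker entries the order of the soft-masked share was the other way, 15.4% on chromosome 4 and 9.95% elsewhere.

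The matches to ACACTG are shown aligned, because this was the word that earlier results of these data had linked to CG8089 peaks. It was found within 100 bp of 10 of the 43 summits, once in each, 5 times on the plus strand, from 72 bp before to 67 bp after the summit. Each line gives 30 bases of the plus strand with the word in capitals, from the RefSeq Release 6 genome.
RpS3A (chr4:67231-67260): aaaaaaggaaacCAGTGTtggtaaaggcca
CaMKII (chr4:1051500-1051529): ccgcggttagtgCAGTGTaaacgggcctta
anne (chr4:132147-132176): aagagaaatcgcCAGTGTaaatatctattt
fuss (chr4:982865-982894): actcgttcaaccACACTGgaaaaatcttga
Arl4 (chr4:179385-179414): taattcgataacACACTGttaccgattaaa
CG11360, 3' end (chr4:688117-688146): tttgggttcgatCAGTGTaattctttcatg
Rad23 (chr4:308100-308129): ccatgtgcggtcACACTGatgacaaatcgt
ey (chr4:696953-696982): cgataggtgttcACACTGtactaacttatt
CG11360, promoter (chr4:671047-671076): ctctaagtggttCAGTGTcaatggtctata
CaMKI (chr4:446103-446132): gctgactggtcaACACTGccacaatggttg

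Its share was 23.3% of the reproducible chromosome 4 peaks and 20.9% of those elsewhere. It was 6.98% of the weaker chromosome 4 entries and 11.2% of the weaker entries elsewhere. Windows of the same length around all annotated start sites held it at 17.5% of 183 starts on chromosome 4 and 13.7% of 23398 starts elsewhere. In the replicates' own strongest chromosome 4 entries the share was 21.6, 13.5 and 23.7% (19.6 ± 5.38%, SD, n = 3).

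A second word, TATCGATA, was the one in which chromosome 4 stood furthest above the other chromosomes in ratio among the words found in more than 1 peak. It is the core of the DNA replication-related element, known in flies from promoters of housekeeping genes and bound by the factor DREF. It was within 100 bp of 4 of the 43 summits (9.30%, against 3.73% elsewhere), with 2 matches at PlexA, and in 4.19% of the weaker entries (1.25% elsewhere). Around all start sites it was in 4.92% of windows on chromosome 4 and 5.45% elsewhere. The 5 matches are shown with the word in capitals, on the plus strand of the same genome.
PlexA, first (chr4:1027076-1027105): tatgtaaatgtTATCGATActataaggcag
PlexA, second (chr4:1027149-1027178): atacctatcacTATCGATAcctaaattaac
ey (chr4:696924-696953): tatgagtttccTATCGATAtggaagaaaac
MED26 (chr4:787635-787664): ttaacaattatTATCGATAtactttcacgt
Crk (chr4:210239-210268): cgatcaaacatTATCGATAgtgtttctatg

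With 4 peaks this share is a small count, and in the replicates' strongest entries it was 5.33 ± 2.60% (SD, n = 3). The site upstream of ey held both words, with TATCGATA just before ACACTG.

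The other 7 of the 9 words searched, on both strands, differed less in ratio or were in at most 2 peaks. The shorter core CGATA, which lies within TATCGATA, was in 39.5% of the reproducible chromosome 4 peaks, against 29.8% elsewhere. It was also in 39.9% of all chromosome 4 start windows. TATAAA, the TATA box word, was in 34.9%, against 28.0% elsewhere, GAGAG (the GAGA factor word) in 20.9%, against 26.2%, and ACAGTG in 14.0%, against 19.3%. GGTCACACT, a core promoter word that can overlap ACACTG, was in 1 peak, that of Rad23, and AGGNGGC in 2. CAGGTAG, the word of the early embryonic factor Zelda, was in 0 of 43, against 0.909% elsewhere. A match says only that these letters are present; binding was not measured at single words.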

How the data were processed

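Peak lists came from 3 biological replicates of 1 group. Per the deposited file descriptions, the authors called peaks on each replicate and on all reads pooled, and kept the reproducible peaks with IDR. The deposited signal value is the authors' measure of peak strength; its scale is not stated, so it served for ranks within a list. The deposited lists also hold −log10 of a q-value. A further file named in each call was taken to be the control and was not analysed here. Peak caller, version and threshold: not given in the sources used here. Depth is unknown.

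Summits on dm6 were annotated with Ensembl release 115 (FlyBase annotation 6.54) and the RefSeq Release 6 genome, on the main chromosome arms, with Python 3.11.15, numpy 2.4.6, pandas 2.3.3 and scipy 1.17.1. A promoter summit was at most 500 bp from a start site. Every annotated transcript start counted, those internal to a gene included. Any other summit took the first class that applied: 5' UTR, coding exon, 3' UTR, noncoding exon, intron, or else intergenic. A replicate entry matched a pooled entry when its summit lay inside it, the strongest being taken. Words were searched within 100 bp of the summit. The matching was tested on simulated lists. No 2 replicates shared an identical entry. The p-values concern only the 3 replicates. In the sign-flip permutation test differences of the same sign in all 3 give p = 0.25, whatever their size or spread.

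The sites, gene lists and words were chosen with earlier results of these data known. Named by rule were the nearest genes of the reproducible peaks, the 10 strongest in full, the 5 with the largest spread of ranks, the 5 strongest weaker entries (4 reported) and 8 gene lists; 2 of the 49 listed names were not annotated on chromosome 4. The peaks of 1 gene are counted but not reported singly here. Filters on mapping by the authors could change counts in repeats. The alternatives tried were the dm3 lists, other windows, other numbers of strongest entries, merged entries and leaving out each replicate.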

Additional observations from a re-analysis of the deposited data

How the results depend on the processing

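Of 41 alternative values, 25 were classed as the same, 15 as moved and 1 as reversed. The 25 kept their direction but not always their size. They include 11.1 points for the share of strong entries without replicate 3 and 38 marked genes, against 30, with a 1000 bp window. Beyond the smaller lists that leaving out entries makes by construction, the cause was not tested. The difference in the share of strong entries, 7.15 points, was −0.0158 to 11.1 points with 1 replicate left out, the lowest without replicate 2, and 5.74 to 10.2 points under the other settings. Peaks recovered by both remaining replicates numbered 19 to 26, marked 11 to 16 genes, were 54.2 to 57.9% promoter peaks and held ACACTG in 15.8 to 23.1%. Recovery was 68.6 to 75.6% with 1 replicate left out. The 1616 strongest pooled entries held 21 chromosome 4 peaks, which marked 14 genes. With a 1000 bp window 79.1% were promoter peaks (62.4% elsewhere). Taking double as many entries per replicate gave 86.0% recovery (91.3% elsewhere). Within 50 bp, ACACTG was in 14.0% (10.1% elsewhere). Within 200 bp it was in 27.9%, below the 31.2% elsewhere, the other way round from the main window. That value is counted among the 25, so the count does not track the comparison with the other chromosomes. The dm3 lists held 41 reproducible peaks among 253 chromosome 4 entries. Unknown depth, an unstated signal scale, 3 replicates and small counts of sites limit every value here. Differences between chromosomes were taken within each replicate; there was no second group to pair with.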
